A study of Drosophila melanogaster with 12 samples.

Results

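The lower part of glycolysis and lactate dehydrogenase were followed across the 12 RNA-seq samples of this study through 7 genes, *Gapdh1*, *Gapdh2*, *Pgk*, *Pglym78*, *Eno*, *PyK* and *Ldh*. They were chosen by gene symbol, with earlier results of these data known, and make up 7 of the 24134 genes listed. All 7 passed the filter on low values, which 10069 genes passed. *PyK* is the spelling used in the table for pyruvate kinase. The study asked how the *Drosophila* estrogen-related receptor, a nuclear receptor encoded by *ERR* and called dERR, shapes gene expression in the larval fat body. *dERR* mutants carried the alleles *ERR1* and *ERR2* in trans, and the heterozygous controls carried *ERR1* over a wild-type chromosome, so that both genotypes share the *ERR1* allele, from crosses in a *w1118* background. Fat bodies dissected from mid-second-instar (L2) larvae and homogenates of whole larvae, which contain fat body too, were sequenced as 4 groups of 3 samples each. The sample labels give larvae raised for 60 h at 25 °C, and the methods for the RNA samples give a slightly later age. Dissection was in small sets of pooled larvae that the methods call technical replicates, so p-values measure the spread between these samples, which may be technical. The groups are mutant fat body, control fat body, mutant whole larvae and control whole larvae.

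Lower glycolysis is the part of the pathway that yields ATP. Glyceraldehyde-3-phosphate dehydrogenase (GAPDH) oxidizes triose phosphate and makes NADH, and phosphoglycerate kinase, phosphoglycerate mutase, enolase and pyruvate kinase then carry the carbon to pyruvate while ATP is formed. Lactate dehydrogenase reduces pyruvate to lactate and returns NADH to NAD+, and in fly larvae it is a well known part of a growth program that resembles aerobic glycolysis, with high levels in the larval muscle. In the fat body, the insect counterpart of liver and adipose tissue, glycolysis supplies carbon for fat synthesis. GAPDH is encoded by *Gapdh1* (FBgn0001091, chromosome arm 2R, 7791901 to 7793380, minus strand) and *Gapdh2* (FBgn0001092, X, 15868145 to 15869661, plus strand). *Pgk* (FBgn0250906, 2L, 2746880 to 2753068, minus strand) encodes phosphoglycerate kinase, *Pglym78* (FBgn0014869, 3R, 29148248 to 29149901, plus strand) phosphoglycerate mutase, and *Eno* (FBgn0000579, 2L, 1724768 to 1729636, minus strand) enolase. *PyK* (FBgn0267385, 3R, 22367536 to 22372746, plus strand) and *Ldh* (FBgn0001258, 3L, 6259105 to 6262694, minus strand) encode pyruvate kinase and lactate dehydrogenase. Positions are those of the BDGP6.54 assembly and span each whole gene.

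Values are regularized log2 (rlog) values, in which a difference of 1 is a doubling. They are normalized for depth but not for gene length, and each gene is drawn toward its own mean over the samples, most strongly at low counts. They do not tell how deeply each sample was sequenced. Replicates of a group correlated across genes with r of 0.958 to 0.981, and their median SD was 0.21 and 0.22 in mutant and control fat bodies, and 0.16 and 0.13 in mutant and control whole larvae. The summed log2 level of 9 fat body markers was 18.4 to 18.7 in mutant and 18.5 to 19.6 in control fat bodies, against 15.9 to 16.4 and 16.7 to 16.9 in mutant and control whole larvae. Of these 9, 5 lay below the filter's floor in mutant and 2 to 3 in control fat body samples. In mutant and control whole larvae 4 and 3 did. Of the 10 gut markers, 9 to 10 lay below the filter's floor in mutant and 8 to 10 in control fat body samples, and the summed level of 10 muscle markers was 9.75 to 10.2 in mutant and 9.67 to 11.5 in control fat bodies, against 18.8 to 18.9 and 18.5 to 18.8 in mutant and control whole larvae. Fat body control replicate 7 stood apart from the other controls, and of the 6 fat body markers tested 3 were lower (*Lsp1beta*, *Lsp1gamma* and *ppl*) and 1 was higher (*Lsd-1*) in mutant fat bodies. Among all genes tested, 11.2% were called lower and 11.1% higher there (limma, adjusted p under 0.05). *ERR* itself had rlog values of 8.40, 8.25 and 8.39 in mutant fat bodies, against 9.11, 9.24 and 8.29 in control fat bodies. It had 8.21, 8.28 and 8.01 in mutant whole larvae, against 8.16, 8.39 and 8.37 in control whole larvae. Its level did not pass the test in either tissue (limma, adjusted p = 0.095 in fat body and 0.96 in whole larvae), and a gene-level value does not check alleles that leave a transcript.

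In the fat body, the transcripts of 6 of the 7 genes fell in mutants and *PyK* rose. The 5 genes that act between triose phosphate and phosphoenolpyruvate fell to between 10.4% (*Gapdh2*) and 31.2% (*Eno*) of their level in controls. Pyruvate kinase, the next step, was at 139.5% of the control level. In whole larvae all 7 genes fell, *Ldh* to 2.21% and *PyK* to 55.2% of controls. Over all genes tested, 11.2% were called lower and 11.1% higher in mutant fat bodies, and 2.56% lower and 0.725% higher in mutant whole larvae, with limma's test against no change at an adjusted p under 0.05. The median log2 change of the 7 genes was -2.35 in fat body and -2.24 in whole larvae, beside -0.07 and 0.01 over all genes tested. In bulk samples, fewer cells of a type and less RNA per cell cannot be told apart. The plot of the 7 genes in the 12 samples shows every value.

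**Figure D1:**
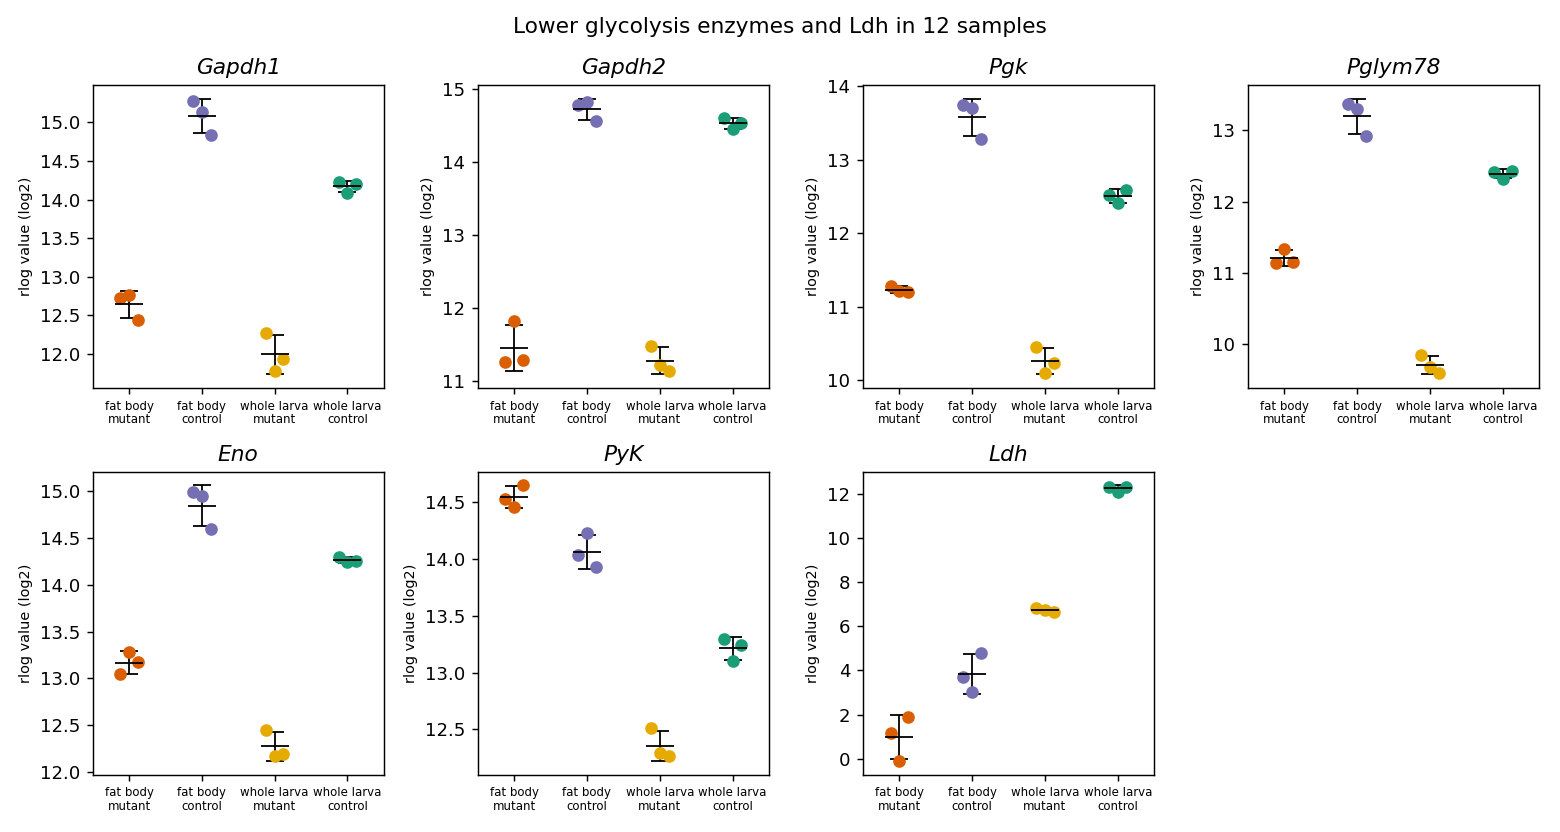
Regularized log2 (rlog) values of the 7 genes in each of the 12 samples, with each panel on its own scale. Points are samples, horizontal bars the group mean and whiskers 1 SD (n = 3). Mutant and control points do not overlap in either tissue for any gene, and mutant points lie below control points except for *PyK* in the fat body.

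*Gapdh1* had rlog values of 12.73, 12.76 and 12.44 in mutant fat bodies, against 15.27, 15.14 and 14.84 in control fat bodies. It had 12.28, 11.78 and 11.93 in mutant whole larvae, against 14.22, 14.09 and 14.20 in control whole larvae. Every mutant value was below every control value in both tissues, a separation shown in the same direction by 25.8% of all genes tested in fat body and by 13.5% in whole larvae. The log2 change of *Gapdh1* was -2.44 ± 0.15 in fat body (SE, limma, adjusted p = 1.2e-06) and -2.18 ± 0.15 in whole larvae (SE, limma, adjusted p = 1.2e-05).

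The second GAPDH gene lost more. *Gapdh2* had 11.26, 11.82 and 11.29 in mutant fat bodies, against 14.79, 14.83 and 14.56 in control fat bodies. It had 11.48, 11.22 and 11.13 in mutant whole larvae, against 14.60, 14.45 and 14.54 in control whole larvae. The change was -3.27 ± 0.15 in fat body and -3.25 ± 0.15 in whole larvae (SE, limma, adjusted p = 2.1e-07 and 6.1e-07), the largest of the 7 genes in the fat body, where it was 9.64-fold lower. When both genes were added up per kilobase of transcript, the mutant-minus-control difference in GAPDH transcript was -2.75 in fat bodies and -2.69 in whole larvae on the log2 scale.

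The unequal fall changed the make-up of the GAPDH transcripts. After division by transcript length, *Gapdh1* made up 73.0%, 65.2% and 68.4% of both genes in mutant fat bodies, against 57.7%, 54.7% and 54.2% in control fat bodies. It made up 62.8%, 59.0% and 62.9% in mutant whole larvae, against 42.8%, 43.1% and 43.5% in control whole larvae. The share was higher in every mutant sample than in any control sample of the same tissue, and in control whole larvae alone *Gapdh2* was the more abundant of the pair. The group means were 68.9% ± 3.9 and 55.5% ± 1.93 in mutant and control fat bodies, and 61.6% ± 2.24 and 43.1% ± 0.37 in mutant and control whole larvae (SD, n = 3 each). The log2 ratio of *Gapdh1* to *Gapdh2* was higher by 0.83 in mutant fat bodies and by 1.08 in mutant whole larvae. The exact two-sided permutation p was 0.1 within each tissue, the smallest that 3 samples against 3 allow, and 0.005 over both tissues, again the smallest possible. With coding length in place of transcript length, the shares were 69.4% and 56.1% in mutant and control fat bodies, and 62.2% and 43.8% in mutant and control whole larvae. The paralogs are close copies, and reads that match both were assigned by Salmon's estimate, so some uncertainty in the split remains.

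**Figure D2:**
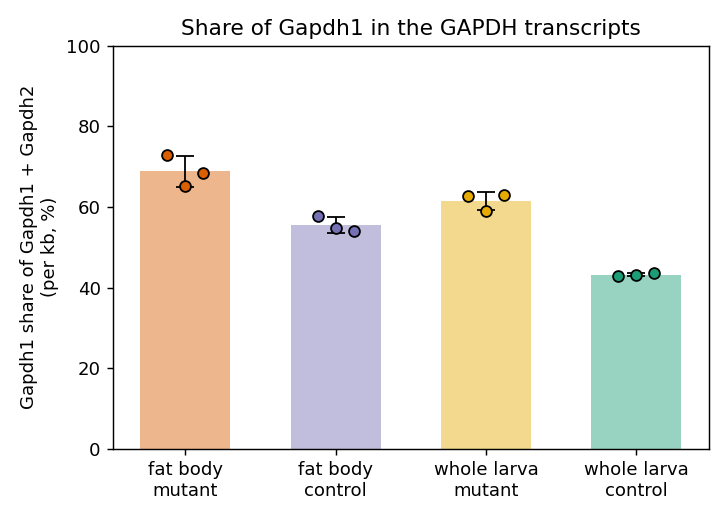
Share of *Gapdh1* in the summed per-kilobase level of *Gapdh1* and *Gapdh2* (%), by group. Bars are means, whiskers 1 SD (n = 3) and points samples. Mutant shares, 68.9% and 61.6% on average, lie above the control shares of 55.5% and 43.1% in both tissues.

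The kinase and mutase steps fell as well. *Pgk*, whose product makes the first ATP of the pathway, had 11.29, 11.21 and 11.20 in mutant fat bodies, against 13.75, 13.70 and 13.29 in control fat bodies. It had 10.46, 10.10 and 10.24 in mutant whole larvae, against 12.53, 12.41 and 12.59 in control whole larvae. Groups did not overlap, and the change was -2.35 ± 0.12 in fat body and -2.24 ± 0.12 in whole larvae (SE, limma, adjusted p = 5.2e-07 and 2.8e-06).

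*Pglym78*, which moves the phosphate within phosphoglycerate, had 11.14, 11.34 and 11.15 in mutant fat bodies, against 13.37, 13.31 and 12.92 in control fat bodies. It had 9.84, 9.69 and 9.59 in mutant whole larvae, against 12.42, 12.32 and 12.44 in control whole larvae. Mutant and control values were again apart in both tissues. It fell by 1.99 in fat body and by 2.68 in whole larvae (SE 0.12 each, limma, adjusted p = 1.0e-06 and 3.9e-07).

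*Eno*, whose product makes phosphoenolpyruvate, had 13.04, 13.28 and 13.18 in mutant fat bodies, against 14.99, 14.95 and 14.60 in control fat bodies. It had 12.45, 12.17 and 12.19 in mutant whole larvae, against 14.30, 14.25 and 14.25 in control whole larvae. The groups were separate in both tissues, and the fall was the smallest among the 5 genes before pyruvate kinase, with a change of -1.68 ± 0.12 in fat body and -1.995 ± 0.12 in whole larvae (SE, limma, adjusted p = 3.5e-06 and 3.6e-06). Relative to *Gapdh2* in the same sample, *Eno* was higher by 1.59 in mutant fat bodies and by 1.26 in mutant whole larvae (exact permutation p = 0.1 in each tissue and 0.005 over both). This pair holds the smallest and the largest fall of the 5 genes in these same data, so the test adds no separate support.

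Among these 5 genes, fat body control replicate 7 was the lowest of the 3 fat body controls and whole animal mutant replicate 1 the highest of the 3 mutant whole-larva samples in every case. Leaving out both samples changed none of the genotype calls of the 7 genes. Of the 7 genes, 3 overlap genes on the opposite strand, *Eno* with *Rrp40* over 905 bases, *Pgk* with *Bacc* over 624 bases and *Cwc25* over 65 bases, and *Pglym78* with *eIF2D* over 6 bases. *Rrp40* had log2 changes of -0.46 and -0.09 in fat body and whole larvae, *Bacc* 0.16 and -0.20 and *Cwc25* -0.41 and -0.26, none past the test (limma, adjusted p from 0.078 to 0.98). *eIF2D* rose by 1.03 in fat body (limma, adjusted p = 0.0013), where *Pglym78* fell, and had 0.18 in whole larvae (adjusted p = 0.87). The library kit keeps the strand.

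*PyK* departed from the genes before it. It had 14.52, 14.46 and 14.64 in mutant fat bodies, against 14.03, 14.22 and 13.93 in control fat bodies. It had 12.51, 12.29 and 12.27 in mutant whole larvae, against 13.29, 13.10 and 13.24 in control whole larvae. All mutant fat body values lay above all control values, as did those of 14.2% of genes tested, and all mutant whole-larva values lay below. The change was 0.48 ± 0.10 in fat body (SE, 95% confidence interval 0.26 to 0.70, limma, adjusted p = 0.0058) and -0.86 ± 0.10 in whole larvae (95% confidence interval -1.08 to -0.63, limma, adjusted p = 0.00054). Neither passed limma's stricter test, treat, for changes beyond 1 on the log2 scale (adjusted p = 1.0 in each), which the 5 genes before it passed in both tissues. That stricter test called 1.42% of all genes lower and 1.76% higher in mutant fat bodies, and 1.11% lower in mutant whole larvae. With the fat body samples fitted alone, the adjusted p of the rise in *PyK* was 0.060 by limma's test against no change.

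Set against the mean of the 5 genes before it in the same sample, *PyK* was at 2.60 ± 0.21 in mutant fat bodies and -0.22 ± 0.15 in control fat bodies on the log2 scale of levels (SD, n = 3 each). It was at 1.25 ± 0.05 in mutant whole larvae and -0.36 ± 0.04 in control whole larvae. The mutant values were above the control values in each tissue, by 2.82 and 1.61 (exact permutation p = 0.1 in each tissue and 0.005 over both tissues, the smallest possible). In fat body this separation follows from the rise of *PyK* and the falls of the 5 genes in the same samples. In whole larvae it restates their unequal falls, so the test adds no separate support. The difference between the tissues in this relative level was not tested.

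**Figure D3:**
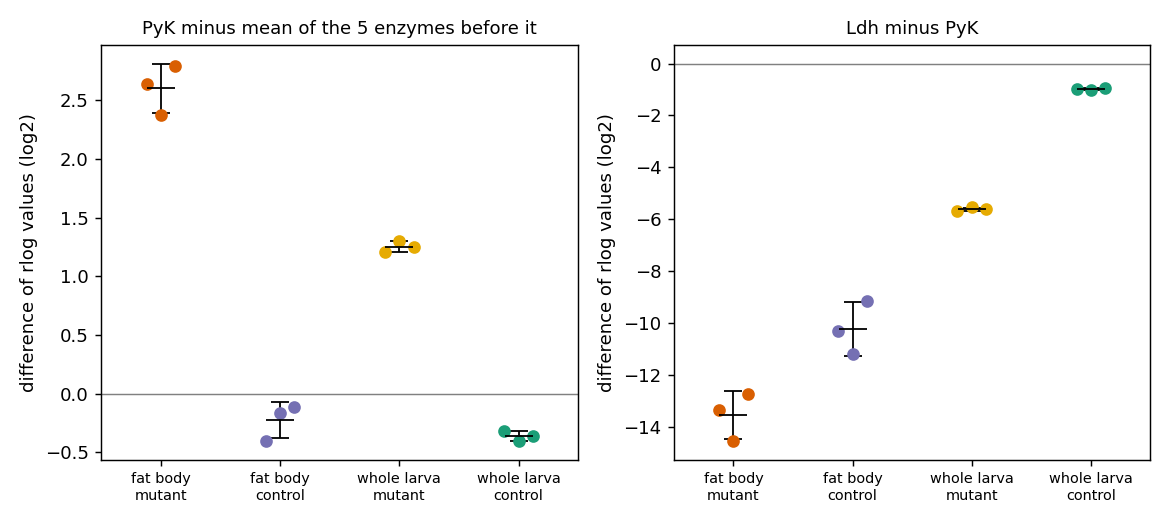
Difference of rlog values (log2) within each sample, for *PyK* minus the mean of *Gapdh1*, *Gapdh2*, *Pgk*, *Pglym78* and *Eno* (left) and for *Ldh* minus *PyK* (right). Points are samples, bars the mean and whiskers 1 SD (n = 3). *PyK* stands 2.60 above the other enzymes in mutant fat bodies and 0.22 below them in control fat bodies, and *Ldh* lies further below *PyK* in mutants of both tissues. The *Ldh* values of mutant fat bodies are below the filter's floor.

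*Ldh* had rlog values of 6.81, 6.74 and 6.64 in mutant whole larvae, against 12.31, 12.08 and 12.32 in control whole larvae. It fell by 5.50 on the log2 scale in whole larvae (SE 0.50, 95% confidence interval -6.62 to -4.39, limma, adjusted p = 0.00010), a level 45.3-fold lower than in controls and the largest fall of the 7 genes. The samples within each genotype differed little (SD 0.09 in mutant and 0.14 in control whole larvae), and the groups were far apart. The model estimates the spread of a gene over all 4 groups together. The SE thus also carries the larger SDs of mutant and control fat bodies, 1.01 and 0.90. In the fat body *Ldh* was near the bottom of the scale, with 1.15, -0.10 and 1.90 in mutants, against 3.70, 3.01 and 4.79 in controls. The fat body groups did not overlap, and the change was -2.85 ± 0.50 (SE, 95% confidence interval -3.97 to -1.73, limma, adjusted p = 0.0021). It missed the test against a log2 fold change of 1 (limma's treat, adjusted p = 0.061), and its adjusted p was 0.056 when the fat body was fitted alone. The 3 mutant fat body values were all below the filter's floor of 3.32.

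Muscle, a tissue rich in *Ldh*, was measured beside it. The summed muscle marker level was 9.75, 10.2 and 9.82 in mutant fat bodies, against 10.1, 9.67 and 11.5 in control fat bodies. Fat body control replicate 7 was highest both in muscle markers and in *Ldh* (4.79), and control replicate 6 was the lowest control in both (*Ldh* 3.01). Among mutant fat bodies, replicate 2 was highest in muscle markers (10.2) but lowest in *Ldh* (-0.10). Of the 10 muscle markers, 1 was called lower in mutant fat bodies and 0 in mutant whole larvae, and 0 were higher in either. Among all genes tested, 11.2% were called lower and 11.1% higher in fat body, and 2.56% and 0.725% in whole larvae. None of the 10 muscle markers was below the floor in fat body control replicates 5 and 7 or in fat body mutant replicate 2. In the other fat body samples 1 or 2 were below it. Without replicate 7, *Ldh* changed by -2.37 in the fat body (limma, adjusted p = 0.0055). The part of muscle RNA in the fat body values of *Ldh* was not tested.

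*Ldh* also fell relative to the enzyme that makes its substrate. *Ldh* minus *PyK* was -5.63 ± 0.07 in mutant whole larvae and -0.98 ± 0.05 in control whole larvae on the log2 scale (SD, n = 3 each), a difference of -4.65. In fat bodies it was -13.6 ± 0.92 in mutants and -10.2 ± 1.04 in controls, a difference of -3.33. The size of this fat body difference is uncertain, because *Ldh* was below the filter's floor in every mutant and in control replicate 6 (3.01). No mutant sample reached a control sample of its tissue (exact permutation p = 0.1 in each tissue and 0.005 over both). In fat body this separation follows from the fall of *Ldh* and the rise of *PyK* in the same samples. In whole larvae it restates their unequal falls, so the test adds no separate support.

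The levels of the 7 genes can be compared with each other per kilobase of transcript. In mutant fat bodies *PyK* was first, with a log2 level per kilobase of 13.47 ± 0.09, and the order went on with *Gapdh1*, *Eno*, *Pglym78*, *Gapdh2*, *Pgk* and *Ldh* (SD, n = 3). In control fat bodies the order was *Gapdh1*, at 14.52 ± 0.22, then *Gapdh2*, *Eno*, *Pglym78*, *PyK*, *Pgk* and *Ldh*. Sample values of neighbours overlapped for *Pglym78* and *Gapdh2* in mutant fat bodies, and in control fat bodies for *Gapdh1* and *Gapdh2*, for *Eno* and *Pglym78* and for *Pglym78* and *PyK*. In mutant whole larvae *Gapdh1* (11.43 ± 0.26) and *PyK* (11.28 ± 0.13) came first with overlapping values, before *Eno*, *Gapdh2*, *Pglym78*, *Pgk* and *Ldh*. There *Eno* overlapped *Gapdh2*, and *Pglym78* overlapped *Pgk*. In control whole larvae *Gapdh2* (14.003 ± 0.08) led, before *Gapdh1*, *Eno*, *Pglym78*, *PyK*, *Pgk* and *Ldh*, with overlap only between *Pglym78* and *PyK*.

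As shares of the summed per-kilobase level of the 7 genes, *PyK* took 46.3% in mutant fat bodies and 10.7% in control fat bodies, and 24.2% in mutant whole larvae and 8.78% in control whole larvae. *Gapdh2* took 8.06% and 24.6% in mutant and control fat bodies, and 16.8% and 32.0% in mutant and control whole larvae. *Eno* took 14.1% and 14.5% in mutant and control fat bodies, and 18.1% and 14.4% in mutant and control whole larvae. *Ldh* took 0.583% in mutant whole larvae and 5.28% in control whole larvae. In the fat body it took 0.0053% in mutants and 0.0127% in controls.

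**Figure D4:**
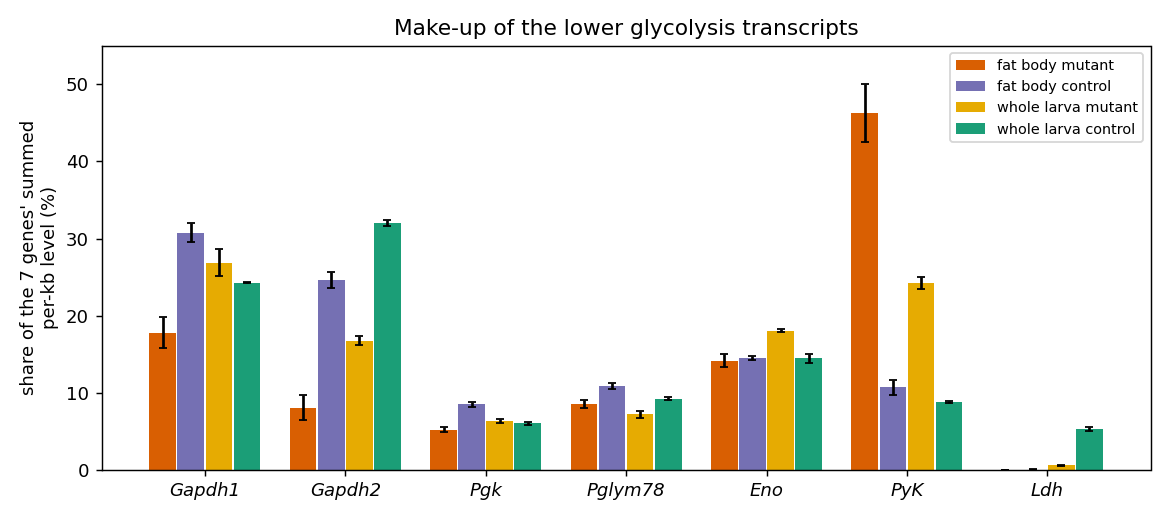
Share of each gene in the summed per-kilobase level of the 7 genes (%), by group. Bars are means of 3 samples and whiskers 1 SD. *PyK* takes 46.3% in mutant fat bodies against 10.7% in control fat bodies, while *Gapdh2* takes 8.06% against 24.6%. *Ldh* is visible only in whole larvae.

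The genotype change differed between fat body and whole larvae for 3 of the 7 genes by limma's interaction test. Over all genes tested, the change was called higher in fat body than in whole larvae for 5.86% and lower for 4.39%. *PyK* differed by 1.34 ± 0.14 (SE, limma, adjusted p = 0.00026), with opposite directions in the tissues. *Ldh* differed by 2.65 ± 0.71 (SE, limma, adjusted p = 0.040) and *Pglym78* by 0.70 ± 0.17 (SE, limma, adjusted p = 0.024), each with the smaller fall in fat body. For *Ldh*, the fat body control mean was 3.83 and every mutant fat body value lay below the filter's floor of 3.32. That low level limits the fall that could be measured there. The *PyK* call held when any single sample was left out. The *Ldh* call was lost in 10 of 12 such fits, with adjusted p of 0.068 to 0.097, and was kept only without fat body control replicate 7 or fat body mutant replicate 2. The *Pglym78* call was lost in 5, without fat body mutant replicate 2, whole animal control replicates 1 or 3, or whole animal mutant replicates 2 or 3, with adjusted p of 0.054 to 0.062. For *Gapdh1* (-0.26), *Gapdh2* (-0.02), *Pgk* (-0.10) and *Eno* (0.32) the difference did not pass the test (limma, adjusted p from 0.30 to 0.98). The 95% confidence intervals of these 4 differences reached from -0.72 for *Gapdh1* to 0.68 for *Eno*. Whole larvae contain fat body, so the contrasts do not separate the fat body from the other tissues.

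Between the tissues, 5 of the 7 genes were higher in fat body than in whole larvae in each genotype, *Ldh* was lower, and *Gapdh2* did not pass the test. Over all genes tested, 24.4% were called higher and 46% lower in mutants, and 24.9% higher and 46.8% lower in controls. The log2 difference of *PyK* was 2.19 in mutants and 0.85 in controls, and that of *Pglym78* 1.50 and 0.81. *Gapdh2* differed by 0.18 in mutants and 0.19 in controls (limma, adjusted p = 0.31 and 0.27). *Ldh* differed by -5.75 in mutants and -8.40 in controls, the largest tissue difference of the 7 genes. The other 3 genes, *Gapdh1*, *Pgk* and *Eno*, were higher by 0.65, 0.97 and 0.90 in mutants and by 0.91, 1.07 and 0.58 in controls. The median of all genes was -0.36 in mutants and -0.38 in controls. After each sample was centred on its median these medians were 0.49 and 0.52, and *Gapdh2* was then called higher in fat body, by 1.03 in mutants and 1.09 in controls, while the other 6 genes kept their calls.

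The upper part of glycolysis, which splits glucose into triose phosphates, was read from a list of 7 genes, of which 6 were tested and *Ald2* was listed at 0 in every sample. In each tissue 5 of the 6 were called lower, beside 11.2% of all genes tested in fat body and 2.56% in whole larvae. The median log2 change of the 6 was -2.68 in fat body and -2.65 in whole larvae. *Tpi*, triose phosphate isomerase, changed by -4.87 in fat body and -3.002 in whole larvae, and *Pgi*, glucose phosphate isomerase, by -4.56 and -3.15. *Pfk*, phosphofructokinase, changed by -3.21 and -3.64, *Ald1*, aldolase, by -2.16 and -2.30, and the hexokinase *Hex-A* by -1.48 and -1.09. A second hexokinase gene, *Hex-C*, did not pass the test, with -0.05 and 0.17 (limma, adjusted p = 0.89 and 0.94). The fat body falls of *Tpi* and *Pgi* were larger than that of *Gapdh2* (-3.27), a difference between genes that was not tested, and *PyK* was the only gene of both lists called higher.

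Beyond the pathway, 13 genes for the use of pyruvate and the handling of cytosolic NADH were measured. In mutant fat bodies 4 rose and 5 fell, beside 11.1% and 11.2% of all genes tested. In mutant whole larvae 1 rose and 2 fell, beside 0.725% and 2.56% of all genes tested. The genes for the pyruvate dehydrogenase complex, which turns pyruvate into acetyl-CoA, rose in fat body, *Pdha* by 1.47, *Pdhb* by 1.62 and *muc* by 1.42 (limma, adjusted p = 4.9e-05, 5.6e-05 and 1.3e-05). In whole larvae *muc* rose by 0.56 (limma, adjusted p = 0.027), while *Pdha* and *Pdhb* had 0.56 and 0.61 (adjusted p = 0.086 and 0.096). *Pdk* and *Pdp*, the kinase and phosphatase that set the activity of the complex, did not pass the test in either tissue. *Mpc1*, a subunit of the mitochondrial pyruvate carrier, fell by 0.53 in fat body, and *PCB*, pyruvate carboxylase, fell by 0.85. In whole larvae they had -0.17 and -0.24, and neither passed the test (limma, adjusted p = 0.71 and 0.43). *CG9399*, the other carrier subunit, had 0.15 in fat body and 0.09 in whole larvae (limma, adjusted p = 0.46 and 0.95).

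For NADH, the cytosolic enzymes of the malate-aspartate shuttle fell in both tissues. *Mdh1*, malate dehydrogenase, changed by -1.62 in fat body and -0.95 in whole larvae, and *Got1*, aspartate aminotransferase, by -1.46 and -0.64 (limma, adjusted p at most 0.038). In the glycerol phosphate shuttle, the cytosolic *Gpdh1* fell by 0.69 in fat body and the mitochondrial *Gpo1* rose by 1.02. Their changes of -0.40 and 0.40 in whole larvae did not pass the test (limma, adjusted p = 0.41 and 0.68). *Men*, malic enzyme, did not pass it in either tissue. The plot of log2 changes along the pathway sets these genes beside the 7.

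**Figure D5:**
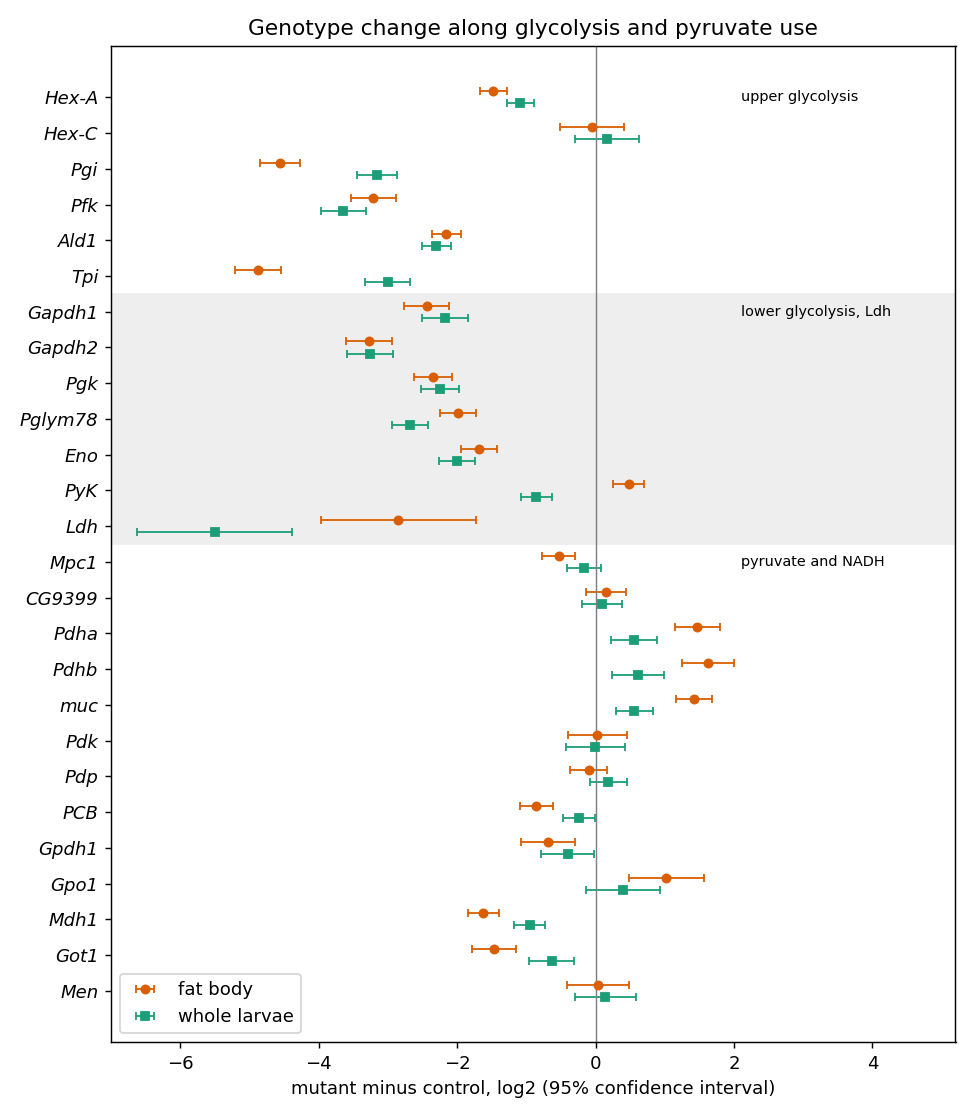
Log2 change, mutant minus control, of upper glycolysis, the 7 genes of lower glycolysis and lactate production (grey band) and genes for pyruvate and NADH, in fat body (circles) and whole larvae (squares), with 95% confidence intervals from limma. The *PyK* intervals lie on opposite sides of 0 (0.26 to 0.70 in fat body and -1.08 to -0.63 in whole larvae), and the interval of *Ldh* is the widest. The spread of each gene was estimated over all 4 groups together.

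Several of the 7 genes have copies elsewhere in the genome, and 9 such copies were looked up. All 9 were below the filter in every group, and *CG13334* was listed at 0 in all 12 samples. Among the phosphoglycerate mutases, *Pglym87* had group means of 0.43 and -1.31 in mutant and control fat bodies and -0.75 and -1.44 in mutant and control whole larvae. It lay below the floor in every sample, so no ratio of *Pglym78* to this copy is given. *CG7069*, a pyruvate kinase copy 88 bases beyond *PyK*, had means of 2.57 and 2.37 in mutant and control fat bodies and 1.67 and 2.73 in mutant and control whole larvae. *CG9961*, a phosphoglycerate kinase copy 1945 bases from *Pgk*, had means of 3.04 and 1.85 in mutant and control fat bodies and 3.16 and 2.47 in mutant and control whole larvae.

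Across the 12 samples, with each tissue centred on its own mean, the 5 genes from *Gapdh1* to *Eno* followed each other with Pearson's r of 0.976 to 0.997. With *PyK* their r was 0.22 to 0.41, and with *Ldh* 0.88 to 0.93. These coefficients largely carry the genotype difference that the samples share, and have no p. Outside the 7, the genes most like the mean of the 5 were *Ald1* (r = 0.997), *UGP* (0.997), *Taldo* (0.995), *CG32444* (0.988) and *Mpi* (0.987). *UGP* makes UDP-glucose, *Taldo* is transaldolase of the pentose phosphate pathway and *Mpi* is mannose phosphate isomerase. The genes most like *Ldh* were *AGBE* (0.955), a glycogen branching enzyme, *Pfk* (0.951), *Zw* (0.950), which is glucose-6-phosphate dehydrogenase, *CG9485* (0.949) and *tyn* (0.947). The genes most like *PyK* were *Nep2* (0.928), *GlyP* (0.926), which is glycogen phosphorylase, *CG5254* (0.918), *CG6785* (0.896) and *CG9522* (0.894). Of the *PyK* group, *Nep2* had log2 changes of 0.53 and -0.77 in fat body and whole larvae and *GlyP* 0.23 and -1.52.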

How the data were processed

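RNA-seq values were read for 12 samples of *Drosophila* L2 larvae. The authors estimated transcript abundance with Salmon 1.10.2 and deposited regularized log2 (rlog) values from DESeq2 1.42.0, which are normalized for depth and shrunk toward each gene's mean. Depth is therefore unknown, and no counting error can be given. Genes whose mean reached 3.32 (log2 of 10) in 1 group or more were tested with limma 3.58.1 in R 4.3.3, in one model of 4 group means with a variance trend and Benjamini-Hochberg adjustment over all 10069 genes. A call is an adjusted p under 0.05 against no change, and treat against a log2 fold change of 1 is the stricter rule. Ratios within a sample were tested by two-sided exact permutation (20 regroupings in a tissue, 400 over both). The model was tested on simulated data. The text names the 7 genes, *ERR*, the lists of upper glycolysis, same-family copies, and pyruvate and NADH genes, marker lists, genes overlapping the 7, and the 5 genes with the highest r to each of 3 profiles. Members and lists were chosen with earlier results of these data known. *PyK* was matched through a synonym. Lengths are those of Ensembl's canonical transcripts (release 115). No sequence was used here. Figures were drawn with matplotlib 3.10.9. The alternatives tried were other filters, scalings, spreads and thresholds, each tissue alone, a replicate block and leaving out each sample.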

Additional observations from a re-analysis of the deposited data

Results flagged for a closer look

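Of the 7 genes, the genotype change differed between fat body and whole larvae by a test of the difference itself (limma interaction) for *Ldh* (2.65), *Pglym78* (0.70) and *PyK* (1.34), given as fat body minus whole larvae on the log2 scale. The *Ldh* difference rests on fat body values near or below the filter's floor. Among the genes listed beside them, the same test called higher differences for *Pdha* (0.92), *Pdhb* (1.01) and *muc* (0.86), subunits of the pyruvate dehydrogenase complex. It called lower differences for *Tpi* (-1.87) and *Pgi* (-1.41) of upper glycolysis, and for *Got1* (-0.83), *Mdh1* (-0.67) and *PCB* (-0.61).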

How the results depend on the processing

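The genotype calls of the 7 genes kept their direction in all 21 alternatives in each tissue, and lost significance only for *Ldh* (adjusted p = 0.056) and *PyK* (0.060) in fat body with each tissue fitted alone. Members called higher in fat body then numbered 0 instead of 1, as they did under treat (0) and at an adjusted p under 0.005 (0). Members called higher in the interaction numbered 3, but 1 without a variance trend and 1 to 3 when each sample was left out. The interaction of *Gapdh2* (-0.02) changed sign under array weights (0.0088), under quantile normalization within tissue (0.18), with fat body control replicate 7 and whole animal mutant replicate 1 left out together, an alternative chosen after seeing the data (0.0042), and over single samples left out (-0.20 to 0.087). Its tissue difference in mutants ran between -0.0061 and 0.28 over single samples left out. Same-numbered whole-larva samples did not deviate together (r = -0.02, -0.05 and -0.13), so no sign of a pairing by number was seen. With 3 samples in a group, such correlations cannot exclude one. With the replicate number as a block, the interaction called 1 member (*Ldh* adjusted p = 0.097, *Pglym78* 0.056) and every genotype call of the 7 genes held. No fat body mutant shares a replicate number with a fat body control, so the block could not compare those genotypes within a number. The *Ldh* interaction had adjusted p = 0.056 without a filter, that of *Pglym78* 0.066 after median centring, and that of *Eno* was called at 0.51 (adjusted p = 0.044) after quantile normalization. The unknown depth limits what the low *Ldh* values in fat body can show. The causes of these shifts were not tested.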
